A study of Mus musculus with 8 samples.

Results

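Genes of glutathione conjugation and antioxidant defence were examined in bone marrow mesenchymal stem/stromal cells (MSCs). The members were chosen by symbol alone: the glutathione transferases (Gst of the alpha, mu, pi, theta, omega, kappa and zeta classes, and the membrane forms Mgst), the glutathione peroxidases, the peroxiredoxins, the superoxide dismutases and the gamma-glutamyl transferases, together with *Gclc*, *Gclm*, *Gss*, *Gsr*, *Cat*, *Nqo1*, *Hmox1*, *Txn1*, *Txnrd1*, *Srxn1*, *Nfe2l2* and *Keap1*. They were 57 of the 24346 genes in the expression table. RNA had been sequenced from 8 libraries, 2 for each of 4 groups: undifferentiated WT MSCs, differentiating WT MSCs, undifferentiated *Dnmt3l* KO MSCs and differentiating *Dnmt3l* KO MSCs. All cells came from female C57BL/6 mice of 8 to 16 weeks, at passage 4, with KO mice and WT littermates bred from heterozygous parents, and MSCs of 3 mice per genotype were mixed after depletion of CD11b-positive and CD45-positive cells. Undifferentiated cells grew in αMEM with 20% fetal bovine serum, and differentiating cells had spent 3 days in osteogenic medium with 10% serum, 0.1 µM dexamethasone (a synthetic glucocorticoid), 10 mM β-glycerophosphate and 50 µM ascorbic acid 2-phosphate. The change of medium, of serum and of state cannot be told apart in this design. Whether replicate libraries derive from independent cell mixes is not given in the sources used here, so the p-values measure only the spread between these libraries, which may be technical.

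Glutathione is a small thiol made in 2 steps, first by glutamate-cysteine ligase (a catalytic subunit encoded by *Gclc* and a modifier subunit encoded by *Gclm*) and then by glutathione synthetase (*Gss*). Transferases attach it to reactive compounds, peroxidases use it to reduce peroxides, glutathione reductase (*Gsr*) regenerates it, and thioredoxin with thioredoxin reductase (*Txn1*, *Txnrd1*) forms a parallel thiol system that also serves the peroxiredoxins. Many of these genes are known targets of the transcription factor NRF2 (*Nfe2l2*), which KEAP1 holds at a low level and oxidants or electrophiles release.

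The 8 libraries held the equivalent of 48.4 to 67.2 M reads, estimated from the steps between low values, and the deepest was a differentiating WT library. *Dnmt3l* was listed at 0 in all 4 KO libraries and at 0.830 to 1.56 RPKM (reads scaled to transcript length and to library size) in the 4 WT libraries. The paper reports that the WT reads covered only later exons of the gene, and that canonical DNMT3L protein was not detectable in MSCs. A listed 0 can be a failed estimate, since the undifferentiated KO libraries also had the actin gene *Actb* at 0, against 1474 to 4314 RPKM elsewhere, and the other 6 libraries had the elongation factor gene *Eef1a1* at 0, against 5498 and 5532 RPKM in undifferentiated KO cells. No member was listed at 0 in a group while reaching 20 RPKM in another. All 12 MSC markers on the fixed list were expressed, and the leukocyte gene *Ptprc* (CD45) was at 0.13 RPKM or below in every library. That gene encodes an antigen used for the depletion. The whole list of macrophage and leukocyte markers summed to between 10.6 and 49.0 RPKM, lowest in undifferentiated KO and highest in differentiating WT libraries.

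The members differed widely in level, and their rank among all genes was not computed. Of the 57 members, 15 averaged more than 100 RPKM over the 8 libraries, 23 averaged 10 to 100 RPKM, and 11 averaged 0.1 to 10 RPKM. The highest means belonged to the peroxiredoxins *Prdx2* (440 RPKM), *Prdx1* (403 RPKM) and *Prdx5* (348 RPKM), which reduce peroxides through thioredoxin, and to the selenium-dependent peroxidases *Gpx4* (371 RPKM), which acts on lipid hydroperoxides, and *Gpx1* (325 RPKM). Next came *Txn1* (255 RPKM), the endoplasmic reticulum peroxidase *Gpx8* (252 RPKM) and *Prdx6* (187 RPKM). Among the soluble transferases the order by mean level was *Gsto1* (178 RPKM), *Gstm2* (118 RPKM), *Gstm5* (60.4 RPKM) and *Gsta4* (59.3 RPKM). The 8 members that averaged below 0.1 RPKM were not tested: *Ggt1*, *Ggt6*, *Gpx2*, *Gpx5*, *Gpx6*, *Gsta2*, *Gstm3* and *Gstt4*. Of these, *Ggt6*, *Gpx2* and *Gpx6* were listed at 0 in every library, where 3 reads would have given between 0.0151 and 0.0549 RPKM depending on the gene and library. The other 49 members were tested with limma on log2(RPKM + 0.1) over all 15342 genes that averaged at least 0.1 RPKM, with Benjamini-Hochberg adjustment. On this scale the change of a low gene is understated. "Rose" and "fell" below mean an adjusted p under 0.05, and a DEG also had an absolute log2 fold change above 1, the limits used in the study. Reads from near-identical paralogs (*Gsta1* and *Gsta2*, *Gstp1* and *Gstp2*, and the mu class) may have been divided between them, so values within these pairs and within the mu class are less certain.

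The first question was how the members changed when MSCs were induced towards bone. In WT cells 24 of the 49 tested members rose (49.0%, beside 31.6% of all tested genes) and 14 fell (28.6%, beside 32.8% of all tested genes). In KO cells 28 rose (57.1%, beside 36.4%) and 16 fell (32.7%, beside 36.6%). The median log2 fold change of the members was 0.24 in WT and 0.37 in KO, while that of all tested genes lay within 0.01 of 0 in both. By the DEG limits 12 members rose and 5 fell in WT cells, beside 9.69% and 4.63% of all tested genes (1487 and 711 genes, or 1212 and 937 with quantile normalization). In KO cells 14 rose and 5 fell by these limits, beside 13.0% and 9.87%. The comparisons within WT and within KO share no libraries. In both, 36 members passed the test, 23 of them upward and 13 downward, and none in opposite directions. Over all 15342 tested genes, 9882 passed in WT and 11186 in KO. How many genes passed in both, or shared a direction, was not counted over all genes, so the 36 is not read as particular to the members. In these bulk libraries, fewer cells of a type and less RNA per cell cannot be told apart.

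Of the 18 tested soluble transferases, 12 rose and 1 fell in WT cells (66.7% rising, beside the 31.6% of all tested genes), and 14 rose and 2 fell in KO cells (77.8% rising, beside 36.4%). The 13 members that fell in both genotypes were *Nfe2l2*, some of its known targets (*Nqo1*, *Hmox1*, *Txnrd1*, *Srxn1* and *Gclm*), the synthesis and reduction enzymes *Gss* and *Gsr*, *Gpx1*, *Prdx1*, *Prdx3*, *Txn1* and the alpha-class transferase *Gsta4*. Members that rose were not sorted into NRF2 targets and others, so this is not a fall of the NRF2 targets as a set.

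**Figure D1:**
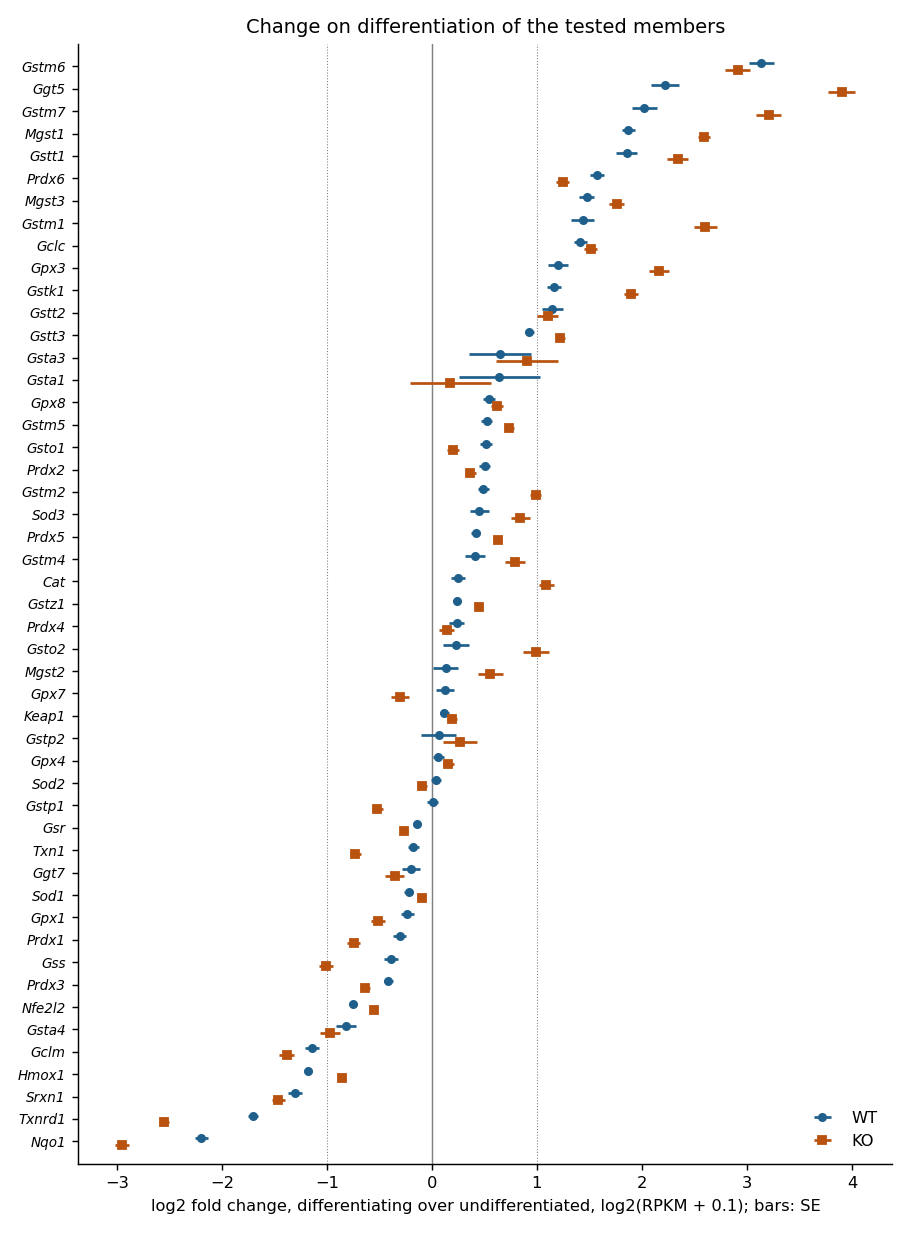
Log2 fold change (differentiating over undifferentiated, on log2(RPKM + 0.1)) of the 49 tested members in WT cells (circles) and KO cells (squares), with SE bars, ordered by the WT value, and dotted lines at the DEG fold limit. Values run from *Nqo1* (-2.19 in WT and -2.95 in KO) to *Gstm6* (3.14 and 2.91) and *Ggt5* (2.22 and 3.90), and the 36 members that passed in both genotypes had the same sign in both.

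*Nqo1* and *Txnrd1* fell furthest. *Nqo1*, which encodes the quinone reductase NQO1, stood at 108 and 116 RPKM in the undifferentiated WT libraries and at 24.2 and 24.5 RPKM in the differentiating ones. In KO cells it went from 172 and 166 RPKM to 23.2 and 20.5 RPKM. The groups did not overlap in either genotype, as was so for 44 of the 49 tested members in WT and 48 in KO. Such separation was not counted over all tested genes, so these counts are not read as particular to the members. The log2 fold changes of *Nqo1* were -2.19 (SE 0.065, limma adjusted p = 2.69e-06) in WT and -2.95 (SE 0.065, adjusted p = 5.47e-07) in KO. *Txnrd1*, the cytosolic selenoenzyme that recharges thioredoxin, was at 101 and 103 RPKM in undifferentiated WT, 30.6 and 32.1 RPKM in differentiating WT, 160 and 151 RPKM in undifferentiated KO and 26.9 and 25.9 RPKM in differentiating KO libraries. Its level was 69.3% lower after induction in WT and 83.0% lower in KO (log2 fold changes -1.70 and -2.55, SE 0.045, limma adjusted p = 1.87e-06 and 2.83e-07). Every differentiating library lay below every undifferentiated library for both genes.

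*Srxn1*, encoding sulfiredoxin, which repairs over-oxidized peroxiredoxins, fell from 49.0 and 51.3 RPKM to 19.8 and 20.7 RPKM in WT and from 49.6 and 48.7 RPKM to 18.9 and 16.7 RPKM in KO. Its log2 fold changes were -1.30 and -1.46 (SE 0.064, limma adjusted p = 1.52e-05 and 5.33e-06). *Hmox1*, the heme-degrading enzyme heme oxygenase 1, went from 203 and 215 RPKM to 92.8 and 91.2 RPKM in WT and from 218 and 216 RPKM to 118 and 122 RPKM in KO, with log2 fold changes of -1.18 (SE 0.039, limma adjusted p = 3.63e-06) and -0.86 (SE 0.039, adjusted p = 6.16e-06). It was the only member past the DEG limits in WT cells and not in KO cells. The transcript of the factor itself, *Nfe2l2*, was at 68.4 and 69.2 RPKM in undifferentiated and 41.2 and 40.4 RPKM in differentiating WT cells, and at 65.5 and 69.5 RPKM against 45.8 and 46.0 RPKM in KO cells. It fell by 0.75 (SE 0.036, limma adjusted p = 1.32e-05) on the log2 scale in WT and by 0.56 (SE 0.036, adjusted p = 2.46e-05) in KO. *Keap1* lay between 14.9 and 17.8 RPKM in all 8 libraries, with log2 differences of 0.12 (limma adjusted p = 0.0524) in WT and 0.19 (adjusted p = 0.00725) in KO.

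Because several of these falling genes are known NRF2 targets, the promoter windows of the members were searched for a core of the antioxidant response element. The letters sought were TGACNNNGC on either strand. Variants of these letters were not searched, so elements spelled otherwise are neither counted nor marked. RefSeq promoter windows (build GRCm38.p6, 250 bases before to 50 bases after each start) were matched by symbol for 49 of the 57 members, with 66 windows in all. The others, *Gclc*, *Ggt5*, *Gsr*, *Gsta4*, *Gstt2*, *Hmox1*, *Prdx6* and *Sod3*, were not searched. The core was present in 13 of the 66 windows (19.7%), in 11 genes, beside 4071 of 32851 windows of all genes (12.4%). Several of the 13 windows were alternative starts of *Ggt1*, which was too low to be tested. By gene the counts were 11 of 49 members beside 3781 of 27025 genes. Known NRF2 targets are listed by name among the members, so a higher share may follow from that choice. The 11 genes were *Gclm*, *Ggt1*, *Gsta3*, *Gstm5*, *Gstm7*, *Mgst1*, *Nfe2l2*, *Prdx1*, *Sod1*, *Srxn1* and *Txnrd1*. The sequences below are the windows of the 3 members with a match that fell past the DEG limits in both genotypes, and of *Mgst1*, which rose past them in both, as did *Gstm7*. The match is in capitals, all 4 genes lie on the plus strand, and each match reads on the minus strand. Counted from the start site, the matches begin at position -92 for *Txnrd1* (chr10:82858956-82859255), 28 for *Srxn1* (chr2:152105274-152105573), -134 for *Gclm* (chr3:122245307-122245606) and -56 for *Mgst1* (chr6:138140277-138140576).
Txnrd1: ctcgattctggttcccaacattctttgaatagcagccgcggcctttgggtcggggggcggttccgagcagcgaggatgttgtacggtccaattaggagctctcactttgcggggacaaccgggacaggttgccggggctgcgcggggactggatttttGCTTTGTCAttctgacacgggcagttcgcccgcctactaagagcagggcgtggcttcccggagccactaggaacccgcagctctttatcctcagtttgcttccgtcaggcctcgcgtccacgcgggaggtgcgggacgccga
Srxn1: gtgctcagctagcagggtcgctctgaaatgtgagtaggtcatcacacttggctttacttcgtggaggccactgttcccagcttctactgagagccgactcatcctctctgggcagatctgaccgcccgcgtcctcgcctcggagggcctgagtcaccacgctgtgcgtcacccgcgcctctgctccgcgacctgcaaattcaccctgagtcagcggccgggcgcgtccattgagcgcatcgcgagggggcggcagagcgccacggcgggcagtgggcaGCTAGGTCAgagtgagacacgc
Gclm: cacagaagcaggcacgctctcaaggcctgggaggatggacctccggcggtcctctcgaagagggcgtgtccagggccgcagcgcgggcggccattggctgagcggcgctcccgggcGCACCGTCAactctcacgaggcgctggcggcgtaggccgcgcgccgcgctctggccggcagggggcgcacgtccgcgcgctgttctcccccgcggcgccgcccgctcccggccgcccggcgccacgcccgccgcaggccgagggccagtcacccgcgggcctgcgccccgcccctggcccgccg
Mgst1: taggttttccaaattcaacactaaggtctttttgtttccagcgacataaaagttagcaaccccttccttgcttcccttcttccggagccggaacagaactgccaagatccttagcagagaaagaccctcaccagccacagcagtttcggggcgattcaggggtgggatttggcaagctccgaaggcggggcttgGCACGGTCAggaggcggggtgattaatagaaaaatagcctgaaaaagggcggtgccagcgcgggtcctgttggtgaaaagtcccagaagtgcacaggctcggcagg
A match is a description of letters, not a site of binding, and genes holding it moved in both directions. The *Nqo1* window did not hold the letters TGACNNNGC, which says nothing of variants of them or of elements outside the window. A second search, for TGTTCT on either strand (the hexamer of the glucocorticoid receptor element, chosen because the induction medium holds dexamethasone), found it in 11 of the 66 windows (16.7%), in *Cat*, *Gclm*, *Ggt6*, *Gpx3*, *Gpx6*, *Gstm1*, *Gstm6*, *Mgst1*, *Mgst3* and *Txnrd1*, beside 19.0% of all windows.

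The subunits of glutamate-cysteine ligase moved apart. *Gclc*, the catalytic subunit, rose from 23.2 and 24.3 RPKM to 63.2 and 63.4 RPKM in WT and from 23.1 and 22.3 RPKM to 69.1 and 61.2 RPKM in KO, with log2 fold changes of 1.41 (SE 0.061, limma adjusted p = 9.21e-06) and 1.51 (SE 0.061, adjusted p = 4.06e-06). *Gclm*, the modifier subunit, fell from 23.0 and 22.8 RPKM to 11 and 9.60 RPKM in WT and from 31.6 and 31.0 RPKM to 11.6 and 12.3 RPKM in KO, with log2 fold changes of -1.14 (SE 0.069, limma adjusted p = 3.45e-05) and -1.38 (SE 0.069, adjusted p = 8.77e-06). The ratio of *Gclc* to *Gclm* RPKM was 1.01 and 1.07 in undifferentiated WT, 5.72 and 6.60 in differentiating WT, 0.731 and 0.721 in undifferentiated KO and 5.97 and 4.97 in differentiating KO libraries. The ratio was higher in each differentiating library than in any undifferentiated one. *Gss*, which adds glycine in the last step, went from 30.5 and 31.3 RPKM to 23.2 and 23.8 RPKM in WT and from 37.1 and 36.1 RPKM to 19.5 and 16.9 RPKM in KO, with log2 fold changes of -0.39 (limma adjusted p = 0.00266) and -1.01 (adjusted p = 2.79e-05). *Gsr* moved little, by -0.14 (limma adjusted p = 0.0179) and -0.26 (adjusted p = 0.00101).

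**Figure D2:**
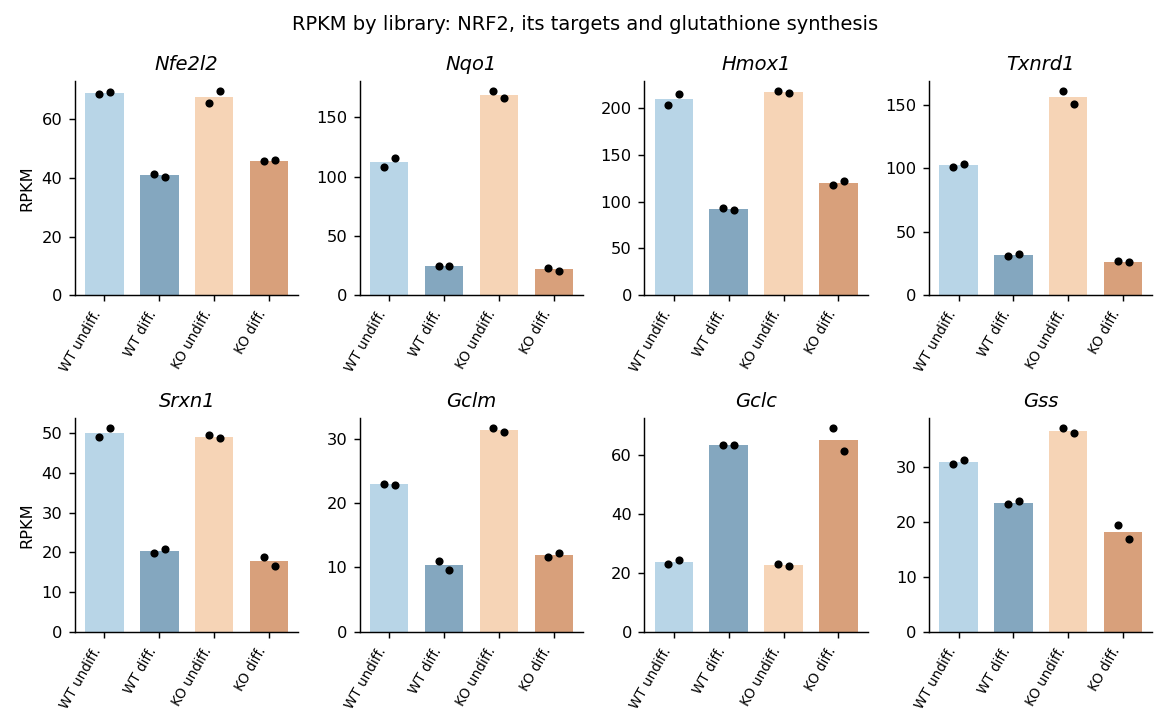
RPKM of NRF2 (*Nfe2l2*), 4 of its known targets and the glutathione synthesis genes in each library, with bars for group means of 2 libraries and points for single libraries, each panel on its own linear axis from 0. *Gclc* alone among these 8 genes was higher after induction, for example 63.2 and 63.4 RPKM against 23.2 and 24.3 RPKM in WT.

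Mu-class transferases conjugate glutathione to a wide range of electrophiles, and their genes form a cluster on chromosome 3 between 107895821 and 108044894 (mm10). All 6 tested mu-class members rose in both genotypes, though the *Gstm4* call in WT was lost with quantile normalization. *Gstm6* changed most in WT, from 0.450 and 0.390 RPKM to 4.51 and 4.42 RPKM (log2 fold change 3.14, SE 0.119, limma adjusted p = 5.97e-06), and in KO it went from 0.437 and 0.552 RPKM to 4.12 and 4.62 RPKM (2.91, adjusted p = 4.28e-06). *Gstm7* went from 1.13 and 1.36 RPKM to 5.49 and 5.19 RPKM in WT (log2 fold change 2.02, SE 0.12, limma adjusted p = 3.29e-05) and from 1.02 and 0.841 RPKM to 8.93 and 9.84 RPKM in KO (3.21, adjusted p = 3.12e-06). *Gstm1* was more abundant, at 11.4 and 10.5 RPKM before and 31.6 and 28.0 RPKM after induction in WT, and at 12.2 and 12.4 RPKM before and 67.8 and 83.3 RPKM after it in KO. Its log2 fold changes were 1.43 (SE 0.107, limma adjusted p = 8.38e-05) and 2.60 (adjusted p = 4.39e-06). *Gstm2* remained the highest of the class in each group, at 96.3 and 102 RPKM, 139 and 140.5 RPKM, 78.4 and 76.1 RPKM, and 160 and 147 RPKM in undifferentiated WT, differentiating WT, undifferentiated KO and differentiating KO libraries, and its log2 fold changes were smaller (0.49 and 0.99). The ratio of *Gstm2* to *Gstm1* RPKM was 8.48 and 9.74 in undifferentiated WT, 4.39 and 5.03 in differentiating WT, 6.42 and 6.16 in undifferentiated KO and 2.36 and 1.77 in differentiating KO libraries. The summed level of the class went from 165 to 255 RPKM in WT and from 140 to 325 RPKM in KO, as group means, with *Gstm2* the largest part of it throughout.

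The theta class, whose genes lie on chromosome 10 between 75774115 and 75837424 (mm10), also rose as a whole, with all 3 tested members up in both genotypes. *Gstt1*, which handles small halogenated compounds, was at 3.34 and 4.00 RPKM in undifferentiated and 13.9 and 13.1 RPKM in differentiating WT cells, and at 5.17 and 5.97 RPKM against 27.8 and 29.2 RPKM in KO cells (log2 fold changes 1.85 and 2.34, SE 0.103, limma adjusted p = 2.46e-05 and 5.50e-06). *Gstt2* went from 1.33 and 1.60 RPKM to 3.24 and 3.46 RPKM in WT and from 3.34 and 2.94 RPKM to 6.89 and 6.78 RPKM in KO (1.15 and 1.10, SE 0.103, limma adjusted p = 0.000181 and 0.000131). Its undifferentiated KO level was thus about that of differentiating WT cells. *Gstt3* rose by 0.93 in WT and 1.22 in KO.

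Of the 3 tested membrane transferases, 2 rose in WT cells and all 3 in KO cells. *Mgst1*, an abundant microsomal transferase with peroxidase activity, was at 34.7 and 35.7 RPKM in undifferentiated WT, 135 and 123 RPKM in differentiating WT, 39.6 and 39.3 RPKM in undifferentiated KO and 229 and 249 RPKM in differentiating KO libraries. Its fold change was 3.66 in WT (limma adjusted p = 3.15e-06) and 6.04 in KO (adjusted p = 5.77e-07), and no library of one state overlapped the other. *Mgst3* went from 29.6 and 31.9 RPKM to 85.7 and 85.6 RPKM in WT and from 23.7 and 21.9 RPKM to 82.3 and 72.8 RPKM in KO (log2 fold changes 1.48 and 1.76, SE 0.071, limma adjusted p = 1.46e-05 and 4.13e-06). *Mgst2*, the least abundant of them, was at 3.43 and 4.40 RPKM in undifferentiated and 4.45 and 4.09 RPKM in differentiating WT cells, where the groups overlapped (log2 difference 0.13, limma adjusted p = 0.388), and at 3.18 and 2.88 RPKM against 4.38 and 4.61 RPKM in KO cells (0.56, adjusted p = 0.00648). *Gstk1*, the kappa-class enzyme of mitochondria and peroxisomes, went from 5.69 and 5.55 RPKM to 13.4 and 12 RPKM in WT and from 5.62 and 5.19 RPKM to 19.7 and 21.0 RPKM in KO (1.16 and 1.89, SE 0.068, limma adjusted p = 3.05e-05 and 2.62e-06).

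Not every transferase rose. *Gsta4*, the alpha-class enzyme that conjugates the lipid aldehyde 4-hydroxynonenal, went the other way, from 86.3 and 96.7 RPKM to 51.1 and 52.4 RPKM in WT and from 61.7 and 62.7 RPKM to 34.6 and 28.9 RPKM in KO (log2 fold changes -0.82 and -0.97, SE 0.092, limma adjusted p = 0.000469 and 0.000139). *Gsta1* and *Gsta3* stayed below 0.5 RPKM in every library, and only *Gsta3* in KO cells passed the test (0.90, limma adjusted p = 0.0325), a call made in 10 of the 16 alternative settings that could fit it. The pi-class gene *Gstp1* lay between 26.9 and 40.9 RPKM, with log2 changes of 0.01 in WT (limma adjusted p = 0.916) and -0.52 in KO (adjusted p = 0.000175). *Gsto1*, of the omega class, rose in both (0.52 and 0.20), as did the zeta-class *Gstz1* (0.24 and 0.45), an enzyme of tyrosine breakdown.

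**Figure D3:**
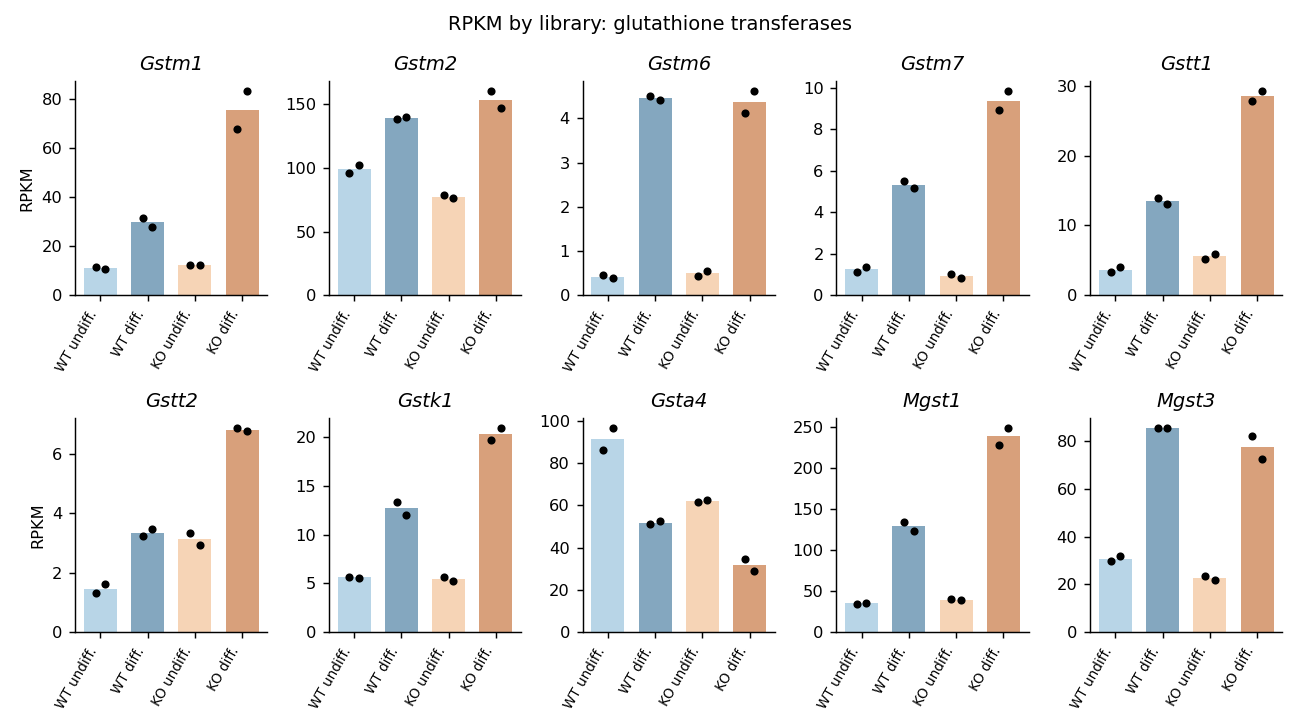
RPKM of 10 glutathione transferases in each library, with bars for group means of 2 libraries and points for single libraries, each panel on its own linear axis from 0. All but *Gsta4* were higher in the differentiating than in the undifferentiated cells of the same genotype, and *Gstm1* reached 67.8 and 83.3 RPKM in differentiating KO libraries against 31.6 and 28.0 RPKM in differentiating WT libraries.

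Peroxide-removing enzymes divided by member. Of the peroxiredoxins, *Prdx6*, a 1-Cys enzyme that uses glutathione and also acts on phospholipids, rose most, from 92.8 and 95.9 RPKM to 273 and 289 RPKM in WT and from 113 and 108 RPKM to 278 and 248 RPKM in KO (log2 fold changes 1.57 and 1.24, SE 0.064, limma adjusted p = 7.27e-06 and 9.77e-06). *Prdx2* (0.50 and 0.37) and *Prdx5* (0.42 and 0.63) rose by less, while *Prdx1* (-0.30 and -0.74) and the mitochondrial *Prdx3* (-0.41 and -0.64) fell. *Gpx3*, the secreted plasma peroxidase, was at 78.8 and 77.2 RPKM in undifferentiated and 187 and 173 RPKM in differentiating WT cells, and at 51.5 and 51.1 RPKM against 207 and 255 RPKM in KO cells (1.20 and 2.16, SE 0.097, limma adjusted p = 0.000114 and 6.03e-06). *Gpx8* rose in both genotypes (0.54 and 0.62) and *Gpx1* fell in both (-0.23 and -0.51). *Gpx4* lay between 331 and 402 RPKM in all libraries, with a log2 change of 0.06 in WT (limma adjusted p = 0.357) and 0.16 in KO (adjusted p = 0.0413), and the KO call was made in 6 of 17 alternative settings.

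Catalase (*Cat*) went from 53.0 and 53.1 RPKM to 65.7 and 60.4 RPKM in WT (log2 fold change 0.25, SE 0.069, limma adjusted p = 0.0209) and from 50.2 and 50.6 RPKM to 101 and 115 RPKM in KO (1.09, adjusted p = 2.39e-05). The extracellular superoxide dismutase *Sod3* rose by 0.45 and 0.84, the cytosolic *Sod1* fell in WT (-0.22) and had a value of -0.10 in KO that did not pass (limma adjusted p = 0.0782), and the mitochondrial *Sod2* lay between 13.7 and 15.1 RPKM in every library without passing in either genotype. *Ggt5*, a membrane gamma-glutamyl transferase that cleaves glutathione conjugates such as leukotriene C4, had the largest log2 change of any member in KO cells, going from 1.43 and 1.40 RPKM to 7.42 and 6.47 RPKM in WT (2.22, SE 0.133, limma adjusted p = 3.39e-05) and from 0.737 and 0.963 RPKM to 13.1 and 14.9 RPKM in KO (3.90, adjusted p = 2.21e-06).

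The lists of related genes were counted in the same way, to be read beside the 31.6% of all tested genes that rose and the 32.8% that fell in WT cells, and the 36.4% and 36.6% in KO cells. Of 21 tested genes of glutathione supply, transport and breakdown, 7 rose and 8 fell in WT cells, and 7 rose and 11 fell in KO cells. *Slc7a11*, the cystine importer, fell from 3.61 RPKM in both undifferentiated WT libraries to 0.41 and 0.40 RPKM (log2 fold change -2.88, and -2.21 in KO). *Chac1*, which degrades glutathione inside the cell, fell by 3.47 in WT and 3.34 in KO on the log2 scale, and *Dpep1*, a dipeptidase that splits cysteinylglycine outside it, rose by 5.06 and 5.91. *Oplah*, which opens the oxoproline ring and so returns glutamate, rose by 2.92 and 4.47. For scale, *Dpep1* went from 6.55 and 7.04 RPKM to 237 and 222 RPKM in WT cells. Of 18 genes of the thioredoxin and glutaredoxin system, 5 rose and 8 fell in each genotype, led upward by *Sesn1* (2.33 and 3.22) and the thioredoxin-binding *Txnip* (1.99 and 2.79) and downward by *Nxn* (-1.45 and -1.72).

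Among 15 genes of NADPH supply, 5 rose in each genotype, with 7 falling in WT and 9 in KO, and the cytosolic and mitochondrial 10-formyltetrahydrofolate dehydrogenases moved apart: *Aldh1l1* rose (2.77 and 3.45) while *Aldh1l2* fell (-2.61 and -3.10), alongside the mitochondrial folate enzyme *Mthfd2* (-2.79 and -3.68). Known NRF2 targets outside the members did not share one direction, with 10 rising and 8 falling of 21 in WT and 9 and 9 in KO. The metallothioneins *Mt1* (3.26 and 4.44) and *Mt2* (4.72 and 5.48), which glucocorticoids are also known to induce, rose most, and the heme transporter *Slc48a1* fell (-1.17 and -1.07). Of 16 partners and regulators of NRF2, the small MAF protein gene *Maff* alone passed the DEG limits (-1.32 and -1.77). Of 12 tested sources of superoxide and peroxide, 10 rose in WT and 9 in KO, among them xanthine dehydrogenase *Xdh* (2.54 and 2.87) and the amine oxidase *Maob* (2.03 and 2.41). *Sepp1*, the secreted selenium carrier selenoprotein P, had the largest change of these lists, from 26.6 and 26.9 RPKM to 1083 and 977 RPKM in WT and from 16.9 and 18.6 RPKM to 2035 and 2254 RPKM in KO (log2 fold changes 5.26 and 6.91). The other genes of selenoprotein synthesis mostly fell, with 7 of 11 down in each genotype. Of 13 tested MAPEG-family and prostaglandin-related relatives of the transferases, 5 rose and 5 fell in WT and 3 rose and 4 fell in KO.

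Markers of other cell types moved in the same comparison. All 9 tested adipocyte markers rose in both genotypes, and the summed level of that list went from 63.4 to 66.6 RPKM in undifferentiated WT to 473 to 475 RPKM in differentiating WT libraries, and from 69.3 to 71.9 RPKM to 521 to 544 RPKM in KO libraries. The defining adipocyte gene *Adipoq* went from 0.06 RPKM or less to between 7.65 and 11.9 RPKM. The osteoblast list summed to 625 to 630 RPKM before and 1388 to 1494 RPKM after induction in WT, and to 530 to 541 RPKM before and 709 to 830 RPKM after it in KO, but by gene 3 of its 10 markers rose and 2 fell in WT, and 2 rose and 5 fell in KO (median log2 change -0.23). Of 14 tested macrophage and leukocyte markers, 11 rose and 2 fell in WT (median 0.94), and 5 rose and 2 fell in KO (median 0.30). Red-cell markers, listed because erythroid cells are rich in catalase and peroxiredoxin, were at 0 for 5 of 10 genes in every library, hemoglobin genes *Hba-a1* and *Hbb-b1* included, and their sum (4.19 to 27.4 RPKM) was carried by the transferrin receptor gene *Tfrc*. Endothelial markers summed to 3.54 to 6.00 RPKM, and only 4 of 8 were tested. The part of these cell types in the members' changes was not tested.

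The second question was whether the members differed between undifferentiated *Dnmt3l* KO and WT cells. Of the 49 tested members, 10 were higher in KO (20.4%, beside 14.7% of all tested genes) and 9 were lower (18.4%, beside 17.5%), with a median log2 difference of 0.02. The differences were small, and 1 member passed the DEG limits, beside 1.70% of all tested genes. That was *Gstt2*, at 3.34 and 2.94 RPKM in KO against 1.33 and 1.60 RPKM in WT (log2 difference 1.05, SE 0.103, limma adjusted p = 0.00156). The count of 19 members past the adjusted p was 10 without the undifferentiated WT replicate 2, 8 without the undifferentiated KO replicate 1 and 10 without the undifferentiated KO replicate 2, and that over all tested genes went from 4943 to 2320, 2289 and 2293 in the same settings.

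Several known NRF2 targets that fell on induction started higher in KO cells. *Nqo1* was at 172 and 166 RPKM in undifferentiated KO and 108 and 116 RPKM in WT (log2 difference 0.60, SE 0.065, limma adjusted p = 0.00215). *Txnrd1* differed by as much (0.61, SE 0.045, limma adjusted p = 0.000662) and *Gclm* by less (0.45, SE 0.069, limma adjusted p = 0.00596), and these 3 calls were made in all 17 alternative settings. *Txn1* (0.28), *Gss* (0.24), *Gsto1* (0.29), *Gstp1* (0.32), *Gstt1* (0.59) and *Prdx6* (0.23) were the other members higher in KO. *Nfe2l2* (-0.03, limma adjusted p = 0.585), *Hmox1* (0.05, adjusted p = 0.327) and *Srxn1* (-0.03, adjusted p = 0.756) did not pass. On the lower side stood *Ggt5* (-0.68), *Gpx3* (-0.60), *Gsto2* (-0.60), *Sod3* (-0.56), *Gsta4* (-0.55), *Mgst3* (-0.43), *Gstm4* (-0.37), *Gstm2* (-0.36) and *Gstz1* (-0.15). Of these, *Gpx3* and *Sod3* encode secreted enzymes.

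After 3 days of induction, 13 members were higher in KO than in WT cells (26.5%, beside 17.8% of all tested genes) and 8 were lower (16.3%, beside 22.9%), with a median log2 difference of 0.04. The 4 DEGs were all higher in KO, beside 3.30% of all tested genes past these limits in either direction: *Gstm1*, *Gstt1*, *Gstt2* and *Ggt5*. *Gstm1* stood at 67.8 and 83.3 RPKM in KO against 31.6 and 28.0 RPKM in WT (log2 difference 1.34, SE 0.107, limma adjusted p = 0.000933). *Gstt1* was at 27.8 and 29.2 RPKM against 13.9 and 13.1 RPKM (1.08, SE 0.103, limma adjusted p = 0.00130), and *Gstt2* at 6.89 and 6.78 RPKM against 3.24 and 3.46 RPKM (1.01, SE 0.103, limma adjusted p = 0.00151). The KO and WT libraries did not overlap for any of the 4 genes, but with 2 libraries per group this was so for 38 of the 49 tested members. The share without overlap was not counted over all tested genes. The log2 differences of *Ggt5* (1.0) and *Gstt2* lay almost at the fold limit. *Ggt5* (chr10:75589340-75617200), *Gstt1* and *Gstt2* are close neighbours on chromosome 10, which also holds *Dnmt3l*. *Gstt3* (chr10:75774115-75781414), which lies between *Ggt5* and *Gstt1*, differed by 0.02 in undifferentiated cells and did not pass there. The part of this chromosome region in the genotype differences of these genes, in either state, was not tested. *Mgst1* (0.89), *Gstm7* (0.80), *Cat* (0.77), *Gstk1* (0.68), *Hmox1* (0.38), *Gpx3* (0.35), *Prdx5* (0.35), *Gstt3* (0.32) and *Nfe2l2* (0.17) were the further members higher in KO. Lower were *Gsta4* (-0.71), *Gpx7* (-0.45), *Gss* (-0.37), *Prdx1* (-0.35), *Gpx1* (-0.34), *Txn1* (-0.27), *Txnrd1* (-0.24) and *Gstp1* (-0.21). Without the differentiating WT replicate 2, the count of 21 members past the adjusted p was 12, and that over all tested genes was 3096 in place of 6251.

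The comparisons of genotype in the 2 states share no libraries. In both, 9 members passed: *Gstt1* and *Gstt2* were higher in KO in each state, *Gsta4* was lower in each, and 6 members changed sides. *Ggt5* and *Gpx3* were lower in undifferentiated KO than WT cells and higher in differentiating KO cells, whereas *Txnrd1*, *Txn1*, *Gss* and *Gstp1* were higher in undifferentiated KO cells and lower in differentiating ones. *Txn1* illustrates the second pattern, at 261 and 271 RPKM in undifferentiated WT and 327 and 320 RPKM in undifferentiated KO libraries, then at 233 and 239 RPKM in differentiating WT and 204 and 187 RPKM in differentiating KO libraries. The calls were not equally firm, since *Gpx3* in differentiating cells and *Gss* in undifferentiated cells passed in 8 of 17 alternative settings each. Over all 15342 tested genes, 4943 passed in undifferentiated and 6251 in differentiating cells. How many of them passed in both states, or changed sides, was not counted.

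A test of the interaction asks directly whether the change on induction differed between genotypes. It passed for 25 of the 49 tested members, 15 with a more positive change in KO (30.6%, beside 19.4% of all tested genes) and 10 with a more negative one (20.4%, beside 20.0%), and the median was 0.09. This test uses all 8 libraries and so shares them with the comparisons above. Past the DEG limits, beside 6.17% of all tested genes in either direction, were *Ggt5* (1.68, SE 0.187, limma adjusted p = 0.00184), *Gstm7* (1.19, SE 0.170, adjusted p = 0.00386) and *Gstm1* (1.17, SE 0.152, adjusted p = 0.00287). *Gpx3* (0.96), *Cat* (0.84), *Gsto2* (0.76), *Gstk1* (0.73) and *Mgst1* (0.72) followed in the positive direction, each past the adjusted p in all 16 alternative settings except *Gsto2*, which passed in 13. The most negative values belonged to *Txnrd1* (-0.85, SE 0.063, limma adjusted p = 0.000752), *Nqo1* (-0.75), *Gss* (-0.61), *Txn1* (-0.55) and *Gstp1* (-0.53). Among the NRF2 targets named above as falling in both genotypes, *Hmox1* was the exception. It had a smaller fall in KO than in WT (0.33, SE 0.055, limma adjusted p = 0.00632), while *Srxn1* (-0.16, adjusted p = 0.206) and *Gclm* (-0.24, adjusted p = 0.100) did not pass. The count of 25 was 16 without the undifferentiated WT replicate 2 and 16 without the differentiating WT replicate 1, where the count over all tested genes went from 6048 to 4503 and 4752.

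**Figure D4:**
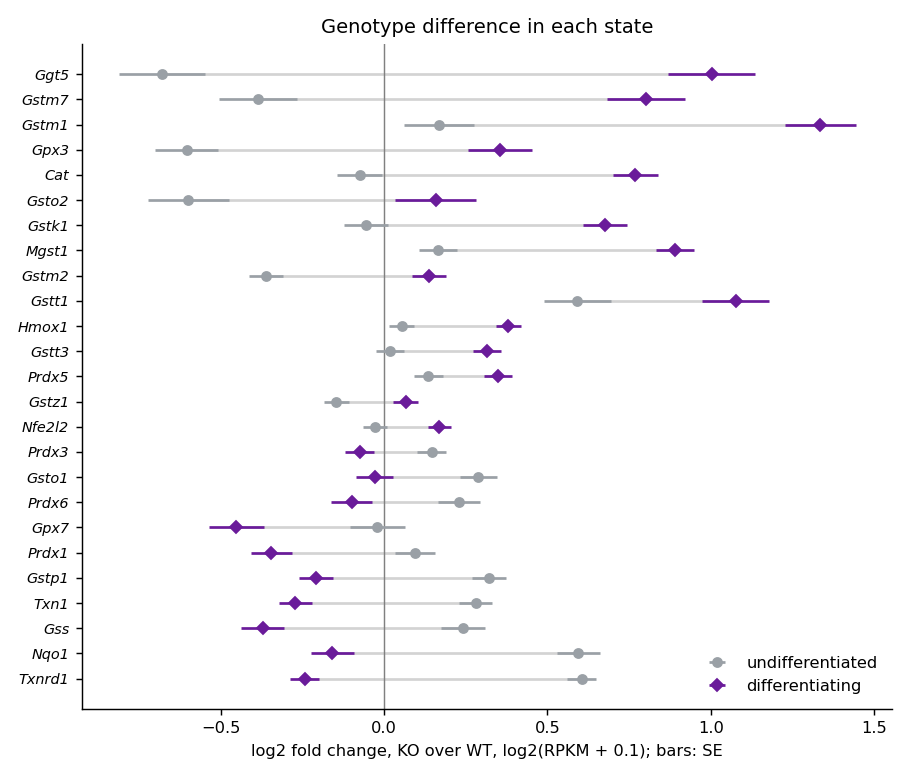
Log2 fold change of KO over WT (on log2(RPKM + 0.1)) in undifferentiated cells (circles) and differentiating cells (diamonds), with SE bars, for the 25 members whose change on induction differed between genotypes, ordered by that difference. *Txnrd1* went from 0.61 to -0.24 and *Ggt5* from -0.68 to 1.0.

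The same lists were compared between genotypes, where 14.7% of all tested genes were higher and 17.5% lower in undifferentiated KO cells, and 17.8% and 22.9% in differentiating KO cells. Among 15 genes of NADPH supply, 5 were higher and 2 lower in undifferentiated KO cells, and 5 were higher and 9 lower in differentiating KO cells. The interaction passed for 13 of these, 4 upward and 9 downward, beside 19.4% and 20.0% of all tested genes. Of 13 relatives of the transferases, 4 were higher and 1 lower in undifferentiated KO cells, and none was higher and 5 lower in differentiating ones. Of 18 genes of the thioredoxin and glutaredoxin system, 2 were higher and 6 lower, then 3 and 6. For 16 partners and regulators of NRF2 these counts were 2 and 3, then 3 and 1, for 12 sources of superoxide and peroxide 2 and 4, then 6 and 1, and for 11 genes of selenoprotein synthesis 3 and 2, then 2 and 2. Among the genes of glutathione supply, transport and breakdown, 4 of 21 were higher and 6 lower in undifferentiated KO cells, 1 of the lower ones past the DEG limits. In differentiating KO cells 9 were higher and 2 lower, and *Oplah* (1.10) passed the DEG limits. In the same cells 1 gene of the thioredoxin and glutaredoxin system passed these limits upward. Downward, 1 gene of NADPH supply and 1 source of superoxide and peroxide passed them. *Sepp1* was higher in differentiating KO than WT cells (2035 and 2254 RPKM against 1083 and 977 RPKM, log2 difference 1.06, limma adjusted p = 0.000798), and the interaction was 1.65 (adjusted p = 0.000586). *Lrp8*, a selenoprotein P receptor, went the other way in differentiating cells, at 0.31 and 0.26 RPKM in KO against 0.73 and 0.75 RPKM in WT (-1.14). Of the 21 known NRF2 targets outside the members, 4 were higher and 2 lower in undifferentiated KO cells and 7 and 3 in differentiating ones, all with log2 differences inside the DEG limit.

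Leukocyte markers differed between the genotypes as well. Of 14 tested macrophage and leukocyte markers, 9 were lower and 2 higher in undifferentiated KO cells, and 12 were lower and 1 higher in differentiating KO cells, with 8 and 10 of the lower ones past the DEG limits. The list summed to 23.8 to 25.1 RPKM in undifferentiated WT, 41.7 to 49.0 RPKM in differentiating WT, 10.6 to 11.4 RPKM in undifferentiated KO and 15.0 to 16.6 RPKM in differentiating KO libraries, with *Lyz2* the largest part and *Itgam* and *Adgre1* at 0.38 RPKM or below. The osteoblast list was also lower in KO, with 7 of 10 markers lower in differentiating cells and none higher, and 4 of 9 tested adipocyte markers were higher there. The part of these cell types in the genotype differences of the members was not tested.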

How the data were processed

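RNA depleted of ribosomal RNA was sequenced as stranded libraries from 8 samples in 4 groups of 2. The authors aligned the reads to mm10 with TopHat2 2.1.0 and quantified genes with Cuffdiff of Cufflinks 2.2.1, per the submitters' processing notes, and deposited 1 table of RPKM values, used here as deposited. How the libraries were scaled to each other is not given in the sources used here. Steps between low values came out as whole reads for 77.4% to 80.0% of values (tolerance 0.1 read, 20% by chance, over 3434 genes), too few for a count test. Depth was 48.4 to 67.2 M reads by these steps. Columns without a sample numbered 0.

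Values were analysed as log2(RPKM + 0.1) for 15342 genes averaging at least 0.1 RPKM, with limma 3.58.1 (R 4.3.3), all 8 libraries in 1 fit with a mean per group and a variance trend (4 residual and 1.98 prior degrees of freedom), and Benjamini-Hochberg adjustment over all genes. On simulated data with 200 genes changed by 2 on the log2 scale in undifferentiated KO cells, among 15342 genes, 184 were recovered with 1 false call. A call here needed both DEG limits, adjusted p under 0.05 and absolute log2 fold change above 1. The simulation therefore does not measure false calls by adjusted p alone, nor the recovery of smaller changes. Alternatives were 17 settings of pseudocount, filter, scaling, variance trend, replicate block, libraries fitted and libraries left out. Tables and figures were made with Python 3.11.15, numpy 2.4.6, pandas 2.3.3 and matplotlib 3.10.9. Positions are from GENCODE M21 (mm10) and promoter windows from RefSeq (GRCm38.p6).

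The members, gene lists and tests were chosen with earlier results of these data known. Named members were those past the DEG limits in any comparison, the 12 listed singly in the opening, the 8 with the highest means, and the 3 in each direction with the smallest adjusted p per comparison. Others are given as members of their class. From each other list, at most 2 DEGs per direction and comparison were named, and some are given only as counts. Marker lists of cell types were given as summed deposited RPKM per library. Protein features, also planned, were not analysed here.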

Additional observations from a re-analysis of the deposited data

Results flagged for a closer look

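The change on osteogenic induction differed between KO and WT cells for 25 of the 49 tested members (limma test of the interaction, adjusted p under 0.05), and these are given here with the log2 difference, KO change minus WT change. Of all tested genes, 19.4% passed with a more positive and 20.0% with a more negative change in KO. The change was more positive in KO for the gamma-glutamyl transferase *Ggt5* (1.68), the mu-class transferases *Gstm7* (1.19), *Gstm1* (1.17) and *Gstm2* (0.50), the secreted peroxidase *Gpx3* (0.96), catalase *Cat* (0.84), the omega-class *Gsto2* (0.76), the kappa-class *Gstk1* (0.73), the membrane transferase *Mgst1* (0.72), the theta-class *Gstt1* (0.49) and *Gstt3* (0.30), the heme oxygenase *Hmox1* (0.33), *Prdx5* (0.21), the zeta-class *Gstz1* (0.21) and *Nfe2l2* (0.20). It was more negative in KO for *Txnrd1* (-0.85), *Nqo1* (-0.75), *Gss* (-0.61), *Txn1* (-0.55), the pi-class *Gstp1* (-0.53), *Prdx1* (-0.44), *Gpx7* (-0.43), *Prdx6* (-0.33), *Gsto1* (-0.32) and *Prdx3* (-0.22). For *Prdx6*, a more negative value means a smaller rise in KO than in WT, since the gene rose in both. Not all of these calls were equally firm. *Gstt1*, *Gpx7*, *Prdx3* and *Prdx5* passed in 8 of 16 alternative settings each, *Nfe2l2* and *Prdx6* in 9, *Gsto1* in 10, *Gstz1* in 11 and *Gsto2* in 13. Groups of 2 libraries allow no search for single outlying samples.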

How the results depend on the processing

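Over 17 alternative settings no called log2 change of the 33 named members reversed sign. For these members, 2631 of 2772 values kept their side of the threshold, 105 lost it and 36 gained it, and most losses came from leaving out 1 library. By the DEG limits the count for KO against WT in undifferentiated cells was 1 (*Gstt2*) and became 0 with a pseudocount of 1 and 0 with quantile normalization, where *Gstt2* kept an adjusted p under 0.05 (limma, highest over all settings 0.0196) and its log2 difference, 0.75 at the lowest setting, was under the limit. In differentiating cells that count went from 4 to 2 with a pseudocount of 1. Leaving out each library in turn gave 8 to 19 members past the adjusted p in undifferentiated cells (19 with all libraries), 0 to 1 DEG there, 12 to 27 members in differentiating cells (21 with all) and 16 to 27 for the interaction (25 with all). The DEG count in undifferentiated cells was 0 without the WT replicate 1 and 0 without the KO replicate 1. Counts on induction stayed within 33 to 40 in WT and 39 to 43 in KO. A group left with 1 library was assumed to vary like the others.

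Same-numbered replicates are not known to share more than a number. The correlation of their deviations over all tested genes lay between -0.0924 and 0.0304 for the 6 pairs of groups. Noise of low genes enters these correlations, so they do not settle whether such replicates share an origin. With the number as a replicate block, 16, 20, 38, 42 and 21 members passed, in place of 19, 21, 38, 44 and 25, for KO against WT undifferentiated and differentiating, induction in WT and in KO, and the interaction. Over all tested genes 3905, 5339, 9415, 10881 and 5110 passed, in place of 4943, 6251, 9882, 11186 and 6048. The DEG counts under the replicate block were 1, 4, 17, 19 and 3. Median centring shifted the median of all genes by -0.10 in WT and -0.08 in KO on induction, and relative to it 22 members rose and 15 fell in WT, in place of 24 and 14, and 25 rose and 18 fell in KO, in place of 28 and 16. Over all tested genes 4017 rose and 6145 fell in WT under median centring, in place of 4855 and 5027. In KO these all-gene counts were 4969 and 6250, in place of 5577 and 5609. The rises of *Cat* and *Prdx4* in WT and of *Gpx4*, *Gsto1* and *Keap1* in KO did not pass under median centring. Depth limits the 8 untested members, which averaged under 0.1 RPKM.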
